A study of Mus musculus with 6 samples.

Results

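Complement is a protein cascade of innate immunity, and its messenger RNAs were followed here through 8 genes of the mouse ovary. C1qa, C1qb, C1qc, C2, C3, C4b, Cfb and Serping1 were taken by gene symbol from a table of 51826 genes, and each symbol matched 1 row. All 8 passed the filter on low counts that left 19027 genes for testing. Bulk RNA sequencing covered 6 ovary libraries of ICR mice, an outbred strain, in 3 groups of 2. The OHSS+Nin group carried the ovarian hyperstimulation syndrome (OHSS) model and received the agent nintedanib (bibf1120), an inhibitor of vascular endothelial, platelet-derived and fibroblast growth factor receptor kinases. The OHSS group carried the model without the agent. The COH group, a name the labels do not spell out, carries no model and no agent in its labels and served as the reference. The sources used here do not give hormones, doses, times, ages or whether a group's libraries are separate mice, so p-values measure only the spread between these libraries, which may be technical.

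Complement is started in 3 ways that meet at C3. In the classical pathway C1q, built from the chains encoded by C1qa, C1qb and C1qc, recognises antibody or damaged cells and activates proteases that cut C4 and C2. The lectin pathway cuts the same pair of proteins through mannose-binding lectin proteases. In the alternative pathway factor B, encoded by Cfb, joins C3b to form a C3-cutting enzyme. C1 inhibitor, encoded by Serping1, blocks the first proteases. C1q is made mainly by macrophages, C2 and factor B are induced by interferon in many cells, and the liver supplies most of the C3, C4 and factor B of plasma. C1 inhibitor also restrains the kinin system, and its deficiency in people causes attacks of swelling from leaky vessels, a feature that OHSS shares.

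Total counts ran from 28498435 to 34716751 per library, and counts of the members from 142 for Cfb to 8296 for Serping1. Levels are in CPM, which sets each count against its library total after TMM scaling. The ovary label held for marker genes of granulosa, theca and luteal cells and oocytes, none of which was at 0 throughout. Of 8 hepatocyte markers, Alb, Apob, Ttr and Fgb had no count in any library, and the 8 together came to 7.67 and 14.4 CPM in OHSS+Nin, 6.40 and 7.75 in OHSS and 9.84 and 8.93 in COH. The OHSS libraries stood apart from each other for most members, with summed member levels of 812 CPM in OHSS replicate 1 and 495 CPM in OHSS replicate 2, so the OHSS comparisons are also given without each. In bulk tissue, fewer cells of a type and less RNA per cell cannot be told apart.

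**Figure D1:**
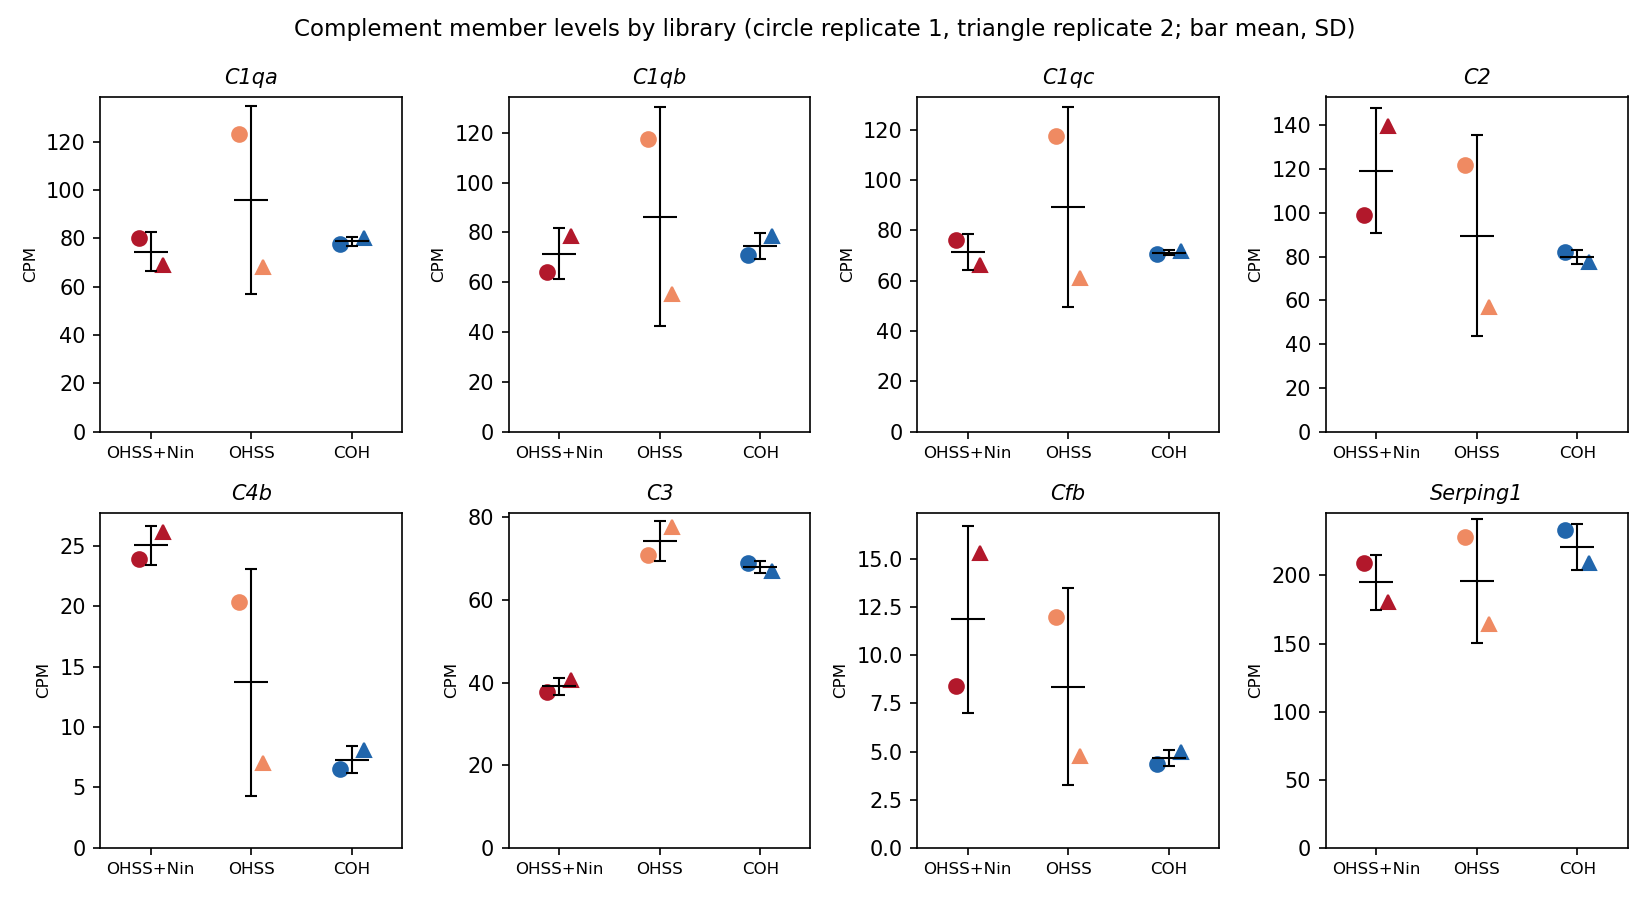
Level of each complement gene in CPM (vertical axes, from 0) in the OHSS+Nin, OHSS and COH libraries, with circles for replicate 1, triangles for replicate 2, and bars for the mean and SD of 2 libraries. C3 lies at 37.6 and 40.6 CPM in OHSS+Nin, below all other libraries, while OHSS replicate 1 lies well above OHSS replicate 2 for the C1q chains, C2, C4b and Cfb.

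The 3 C1q chains stood at similar levels in OHSS+Nin and COH, while the OHSS libraries lay on either side of them. C1qa, the A chain, had 80.2 and 68.9 CPM in OHSS+Nin, 123 and 68.2 in OHSS, and 77.5 and 80.2 in COH. C1qb, the B chain, had 64.2 and 78.7 CPM in OHSS+Nin, 117 and 55.4 in OHSS, and 70.9 and 78.4 in COH. C1qc, the C chain, had 76.4 and 66.4 CPM in OHSS+Nin, 118 and 61.2 in OHSS, and 70.4 and 71.9 in COH. For each chain OHSS replicate 1 was the highest library and OHSS replicate 2 the lowest, for C1qa nearly level with OHSS+Nin replicate 2. The OHSS libraries therefore lay on both sides of the COH libraries, and no chain separated the groups in any of the 3 comparisons.

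Fold changes of the chains were small against this spread. For OHSS against COH the log2 fold changes were 0.28 (SE 0.282) for C1qa, 0.21 (SE 0.352) for C1qb and 0.33 (SE 0.304) for C1qc, with edgeR adjusted p of 0.792, 0.888 and 0.777. For OHSS+Nin against OHSS they were -0.36 (SE 0.282), -0.27 (SE 0.352) and -0.32 (SE 0.304), and for OHSS+Nin against COH -0.08 (SE 0.282), -0.06 (SE 0.352) and 0.0040 (SE 0.304). The 95% interval of the last, for C1qc, ran from 0.591-fold to 1.70-fold, so it does not exclude changes within that range. It is not a limit of detection, which 2 libraries a group leave unknown. The sign of each OHSS against COH value turned on 1 library. Without OHSS replicate 1 the OHSS minus COH values became -0.19, -0.42 and -0.20 for C1qa, C1qb and C1qc, and without OHSS replicate 2 they were 0.64, 0.65 and 0.72.

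C1qa and C1qc kept the closest of the ratios between members examined. Their genes lie side by side on chromosome 4 with C1qb next to C1qc, on the same strand. The ratio of C1qc to C1qa in CPM was 0.952 and 0.963 in OHSS+Nin, 0.952 and 0.897 in OHSS, and 0.908 and 0.897 in COH, a span of 1.07-fold while each gene itself spanned 1.81-fold or more. The ratio of C1qb to C1qa spanned 1.43-fold, from 0.801 in OHSS+Nin replicate 1 to 1.14 in OHSS+Nin replicate 2, so the B chain followed the other chains less closely. Per kilobase of annotated exon, C1qc stood at 0.483 to 0.519 times the level of C1qa in the 6 libraries. That value depends on the C1qc exon length of 1931 bases, which includes 2 annotated transcripts.

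The upstream sequences of C1qb and C1qc are shown because these neighbouring genes lie on the same strand behind separate start sites. RefSeq (build GRCm38.p6) gives a promoter for 3 of the 8 members, C1qb, C1qc and C3. The 250 bases before the start of C1qb lie at chr4:136886201-136886450 and those of C1qc at chr4:136892915-136893164, both on the minus strand and written 5′ to 3′, with capitals for the motif match described next.
C1qb: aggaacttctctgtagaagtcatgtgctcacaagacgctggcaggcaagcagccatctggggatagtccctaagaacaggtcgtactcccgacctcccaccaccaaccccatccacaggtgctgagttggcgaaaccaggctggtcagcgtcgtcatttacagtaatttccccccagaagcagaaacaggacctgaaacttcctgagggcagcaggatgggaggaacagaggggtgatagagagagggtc
C1qc: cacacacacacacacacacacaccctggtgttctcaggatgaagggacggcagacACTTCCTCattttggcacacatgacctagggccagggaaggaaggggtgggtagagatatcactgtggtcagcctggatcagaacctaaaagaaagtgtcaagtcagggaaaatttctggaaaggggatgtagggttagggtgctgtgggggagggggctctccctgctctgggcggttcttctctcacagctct
The letters GAGGAAGT, a binding sequence of the macrophage and B cell factor PU.1, were searched on both strands. C1qc holds 1 match, on the opposite strand (ACTTCCTC in capitals), beginning 195 bases before the start, and C1qb holds 0. Of 32851 promoters in the table, 2.44% hold a match over the same length. A match is a description of the letters and says nothing of binding.

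The sum of all 15 macrophage and monocyte markers did not have its highest and lowest libraries in common with C1q. It did when Lyz2 was left out, a choice that the marker list did not set, and no other marker was left out in turn. The summed C1q chains came to 221 and 214 CPM in OHSS+Nin, 358 and 185 in OHSS, and 219 and 231 in COH. The sum of 15 macrophage and monocyte markers was 345 and 319 CPM in OHSS+Nin, 519 and 382 in OHSS, and 503 and 566 in COH. Lyz2, the lysozyme of myeloid cells, carried most of the difference in that sum, at 82.2 and 50.7 CPM in OHSS+Nin, 167 and 137 in OHSS, and 239.5 and 262 in COH. Without Lyz2 the sum was 263 and 268 CPM in OHSS+Nin, 352 and 244 in OHSS, and 263 and 303 in COH, with OHSS replicate 1 highest, COH replicate 2 next and OHSS replicate 2 lowest, as for C1q. Of the 15 markers 4 had a higher mean in OHSS+Nin than in OHSS and 9 in OHSS than in COH, and none was at 0 in all libraries. EdgeR called 0 of them in either comparison, with 3 and 1 at an unadjusted p under 0.05, against 7.42% and 8.82% of all genes. DESeq2 called 1 and 0, against 1.27% and 2.19% of all genes. Csf1r, the receptor that macrophages need for survival, stood at 45.5 and 36.3 CPM in OHSS+Nin, 59.4 and 54.2 in OHSS, and 52.2 and 50.5 in COH. The part of macrophage number in the C1q levels was not tested.

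**Figure D2:**
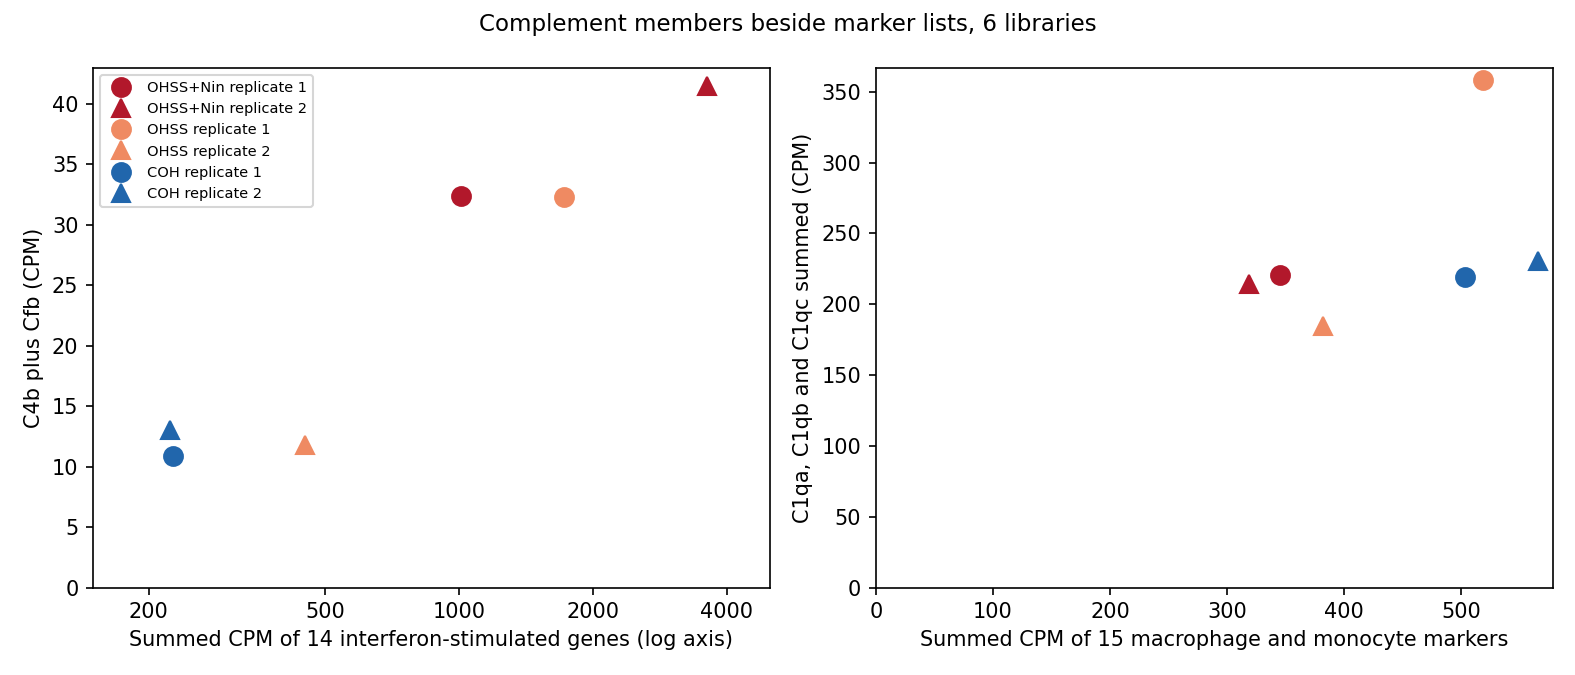
Left, C4b plus Cfb in CPM (vertical axis) against the summed CPM of 14 interferon-stimulated genes (horizontal log axis); right, summed C1q chains in CPM against the summed CPM of 15 macrophage and monocyte markers, 1 point per library. The 3 libraries at 32.3 to 41.5 CPM of C4b plus Cfb are the 3 at 1012 to 3614 CPM of interferon-stimulated genes, and OHSS replicate 1 stands alone at 358 CPM of C1q.

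C4b and Cfb were higher in OHSS+Nin than in COH, and split the OHSS libraries. OHSS+Nin and COH differ by both the model and the agent, which this comparison cannot tell apart. C4b, which supplies the C4 of the classical and lectin C3 convertase, had 23.9 and 26.1 CPM in OHSS+Nin, 20.3 and 7.06 in OHSS, and 6.52 and 8.09 in COH. Both OHSS+Nin libraries lay above every other library, OHSS replicate 1 came close to them, and OHSS replicate 2 lay within the COH range. Cfb, the protease component of the alternative convertase, had 8.43 and 15.3 CPM in OHSS+Nin, 11.99 and 4.75 in OHSS, and 4.36 and 4.97 in COH. OHSS replicate 1 lay between the OHSS+Nin libraries for Cfb, and OHSS replicate 2 again lay between the COH libraries. C2, the protease that pairs with C4, had 99.1 and 139.6 CPM in OHSS+Nin, 122 and 57.0 in OHSS, and 82.0 and 77.4 in COH. For C2 the OHSS+Nin libraries lay above COH, and OHSS replicate 2 was the lowest of all 6.

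EdgeR called none of these differences over all genes, and DESeq2 called C4b in OHSS+Nin against COH. In log2 fold change, C4b differed by 1.78 for OHSS+Nin against COH (SE 0.495, edgeR unadjusted p = 0.0137, adjusted p = 0.491), a 3.43-fold difference with a 95% interval of 1.45-fold to 8.11-fold. The DESeq2 adjusted p was 0.0221 and the limma voom adjusted p 0.524. Cfb differed by 1.35 (SE 0.515, edgeR unadjusted p = 0.0439, adjusted p = 0.509) and C2 by 0.58 (SE 0.374, adjusted p = 0.640), neither called by edgeR, DESeq2 or limma voom. For OHSS against COH the values were 0.91 (SE 0.487) for C4b, 0.84 (SE 0.512) for Cfb and 0.17 (SE 0.374) for C2, and for OHSS+Nin against OHSS 0.87 (SE 0.482), 0.50 (SE 0.505) and 0.41 (SE 0.374). The comparisons share libraries and are not separate evidence. Leaving out 1 OHSS library moved these values widely. For OHSS against COH, C4b was -0.034, Cfb 0.041 and C2 -0.47 without OHSS replicate 1, and 1.47, 1.36 and 0.61 without OHSS replicate 2. For OHSS+Nin against OHSS they were 1.81, 1.3 and 1.05 without OHSS replicate 1, and 0.30, -0.013 and -0.030 without OHSS replicate 2.

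Interferon-stimulated genes were highest in the same libraries as C4b and Cfb, without matching them in every library, and C2 matched them in part. The sum of 14 such genes was 1012 and 3614 CPM in OHSS+Nin, 1721 and 451 in OHSS, and 227 and 224 in COH. C4b plus Cfb came to 32.3 and 41.5 CPM in OHSS+Nin, 32.3 and 11.8 in OHSS, and 10.9 and 13.1 in COH. The 3 libraries with the most interferon-stimulated RNA were thus the 3 with the most C4b plus Cfb, while OHSS replicate 2 had an interferon sum above COH and a C4b plus Cfb sum within the COH range. C4b alone did not keep their order, at 20.3 CPM in OHSS replicate 1 and 23.9 in OHSS+Nin replicate 1. C2 was highest in the same 3 libraries but lowest in OHSS replicate 2, at 57.0 CPM against 82.0 and 77.4 in COH. All 14 interferon genes were tested and had a higher mean in OHSS+Nin than in COH. EdgeR called 0 of them, with 13 at an unadjusted p under 0.05, and DESeq2 called 13, against 9.7% and 2.73% of all genes. All 14 also had a higher mean in OHSS than in COH. There edgeR called 0, with 12 at an unadjusted p under 0.05, and DESeq2 called 9, against 8.82% and 2.19% of all genes. For OHSS+Nin against OHSS all 14 had a higher mean, with 0 at an unadjusted p under 0.05 and 0 called by edgeR or DESeq2. The part of the interferon response in the C4b, Cfb and C2 levels was not tested.

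Copies and overlapping annotation limit the precision of these genes. C4a, a copy of C4b, aligned over 5378 bases with 96.0% of bases identical between their longest transcripts, and 8.82% of the 144-base windows of C4b, the mean read length, occur unchanged in C4a. Reads from those stretches could have been split or lost, and how such reads were treated is not given in the sources used here. C4a had 3.30 and 4.77 CPM in OHSS+Nin, 5.21 and 6.60 in OHSS, and 2.53 and 2.101 in COH. Unlike C4b it was highest in the OHSS libraries, and OHSS differed from COH by 1.35 on the log2 scale (SE 0.304, edgeR adjusted p = 0.512, DESeq2 adjusted p = 0.0141). The ratio of C4b to C4a was 7.25 and 5.48 in OHSS+Nin, 3.90 and 1.07 in OHSS, and 2.58 and 3.85 in COH. With both genes summed, the log2 fold change for OHSS+Nin against COH was 1.59 (edgeR adjusted p = 0.383).

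C2 and Cfb are neighbours on chromosome 17 and are joined by Gm20547, a gene model that runs through both. It shares 42.8% of the annotated exon bases of C2 and 79.5% of those of Cfb. Its counts were 23 and 98 in OHSS+Nin, 42 and 2 in OHSS, and 13 and 3 in COH, below those of Cfb and C2 in every library. Summing Gm20547 with C2 and Cfb gave a log2 fold change of 0.65 for OHSS+Nin against COH (edgeR adjusted p = 0.611). The ratio of C2 to Cfb was 11.8 and 9.12 in OHSS+Nin, 10.2 and 12 in OHSS, and 18.8 and 15.6 in COH, so both COH libraries had more C2 per Cfb than the other 4 libraries.

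C3 was lower in the nintedanib libraries than in any other, and its libraries agreed closely within each group. C3, the central component that every pathway cleaves, had 37.6 and 40.6 CPM in OHSS+Nin, 71.0 and 77.6 in OHSS, and 68.9 and 67.0 in COH. The OHSS+Nin libraries lay far below the rest, and the OHSS libraries a little above COH. For OHSS+Nin against OHSS its log2 value was -0.93 (SE 0.108, edgeR unadjusted p = 0.000235, adjusted p = 0.292), a ratio of 0.527 with a 95% interval of 0.437 to 0.635. For OHSS+Nin against COH it was -0.80 (SE 0.107, edgeR unadjusted p = 0.000494, adjusted p = 0.269), a ratio of 0.576 with an interval of 0.477 to 0.694. By p-value C3 ranked 15 and 34 of 19027 genes in these comparisons, which share the OHSS+Nin libraries. The edgeR test with Benjamini-Hochberg adjustment did not call C3 in either, limma voom gave adjusted p of 0.294 and 0.285, and DESeq2 called both (adjusted p = 7.37e-09 and 1.89e-06).

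With any 1 library left out the C3 value stayed between -1.01 and -0.86 for OHSS+Nin against OHSS and between -0.85 and -0.75 against COH. The edgeR adjusted p then ran from 0.179 to 0.697 and from 0.195 to 0.918. OHSS against COH showed a C3 difference of 0.13 (SE 0.107, adjusted p = 0.751), with an interval of 0.908-fold to 1.32-fold. C3 was thus the member with the smallest SE in each comparison, and the only one whose fold change for OHSS+Nin against OHSS had an interval that left out no change.

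The C3 upstream sequence is shown because C3 was the member with the clearest difference between groups. It covers the 250 bases before the start at chr17:57228137-57228386 (RefSeq, GRCm38.p6, minus strand, written 5′ to 3′), with capitals for a match to TTGCNNAA, letters bound by C/EBP factors of the acute phase response.
C3: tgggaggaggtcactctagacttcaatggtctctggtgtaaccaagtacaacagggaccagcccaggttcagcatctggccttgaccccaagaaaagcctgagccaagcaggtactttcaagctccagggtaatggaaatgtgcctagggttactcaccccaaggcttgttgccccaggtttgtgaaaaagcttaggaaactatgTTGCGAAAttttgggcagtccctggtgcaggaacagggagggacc
The match is the single one on either strand, begins 45 bases before the start, and occurs in 9.56% of the 32851 promoters over this length. The letters TTCNNNGAA of STAT factors had 0 matches on either strand of the C1qb, C1qc and C3 sequences, against 7.02% of all promoters with a match. No match says only that these letters are not in these windows.

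Some sums of cell markers separated OHSS+Nin from both other groups, as C3 did, and others did not. The sum of 8 granulosa cell markers was 5015 and 4872 CPM in OHSS+Nin, 3169 and 3199 in OHSS, and 2938 and 2935 in COH. All 8 had a higher mean in OHSS+Nin than in OHSS, with 0 called by edgeR or DESeq2, and none was at 0 throughout. Of these 5 were at an unadjusted p under 0.05, against 7.42% of all genes. For OHSS+Nin against COH 7 of the 8 had a higher mean, with 0 called by edgeR. DESeq2 called 5 higher and 6 were at an unadjusted p under 0.05, against 2.73% and 9.7% of all genes in either direction. Endothelial markers came to 600 and 620 CPM in OHSS+Nin, 448 and 504 in OHSS, and 564 and 566 in COH. All 7 had a higher mean in OHSS+Nin than in OHSS, with 0 called by edgeR, and none was at 0 throughout. DESeq2 called 2 and 4 were at an unadjusted p under 0.05, against 1.27% and 7.42% of all genes. For OHSS+Nin against COH 5 of the 7 had a higher mean, with 0 called by edgeR or DESeq2 and 1 at an unadjusted p under 0.05. The sum of theca and luteal markers lay the other way between OHSS+Nin and OHSS. It was 25295 and 20609 CPM in OHSS+Nin, 27701 and 26715 in OHSS, and 22141 and 24027 in COH. Of these 7 markers 6 had a lower mean in OHSS+Nin than in OHSS, with 0 called by edgeR. DESeq2 called 0 and 0 were at an unadjusted p under 0.05, against 1.27% and 7.42% of all genes. The other, Cyp17a1, had 2464 and 734 CPM in OHSS+Nin, 1230 and 865 in OHSS, and 214 and 459 in COH. The sum of macrophage markers, given above, was lowest in OHSS+Nin with Lyz2 in it, and without Lyz2 it was lowest in OHSS replicate 2 and the groups overlapped. Stromal fibroblast markers came to 4099 and 4301 CPM in OHSS+Nin, 4662 and 3461 in OHSS, and 4747 and 4719 in COH, and ovarian surface markers to 75.6 and 114 CPM, 103 and 134, and 143 and 90.8, in that order of groups. The fibroblast and surface sums overlapped between OHSS+Nin and OHSS, and the theca and luteal sums between OHSS+Nin and COH. Of 8 fibroblast markers 5 had a lower mean in OHSS+Nin than in OHSS and 3 a higher, with 0 called by edgeR or DESeq2. Of 8 surface markers 3 were lower and 5 higher, with 0 called by edgeR and 1 by DESeq2, against 1.27% of all genes. Dcn, a fibroblast marker, lay as C3 did, at 353 and 398 CPM in OHSS+Nin, 937 and 436 in OHSS, and 477 and 597 in COH. The part of these cell types in the C3 difference was not tested.

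Serping1, encoding C1 inhibitor, was the most abundant member in CPM and varied least. It had 209 and 181 CPM in OHSS+Nin, 228 and 164 in OHSS, and 233 and 209 in COH, so the groups overlapped in all 3 comparisons. The span over the 6 libraries was 1.42-fold, against 1.81-fold to 4.01-fold for the other members. Its log2 fold change was -0.17 (SE 0.186) for OHSS against COH, -0.0092 (SE 0.186) for OHSS+Nin against OHSS and -0.18 (SE 0.186) for OHSS+Nin against COH, with edgeR adjusted p of 0.809, 0.994 and 0.765. The interval for OHSS against COH, 0.641-fold to 1.23-fold, leaves room for a moderate difference in either direction.

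**Figure D3:**
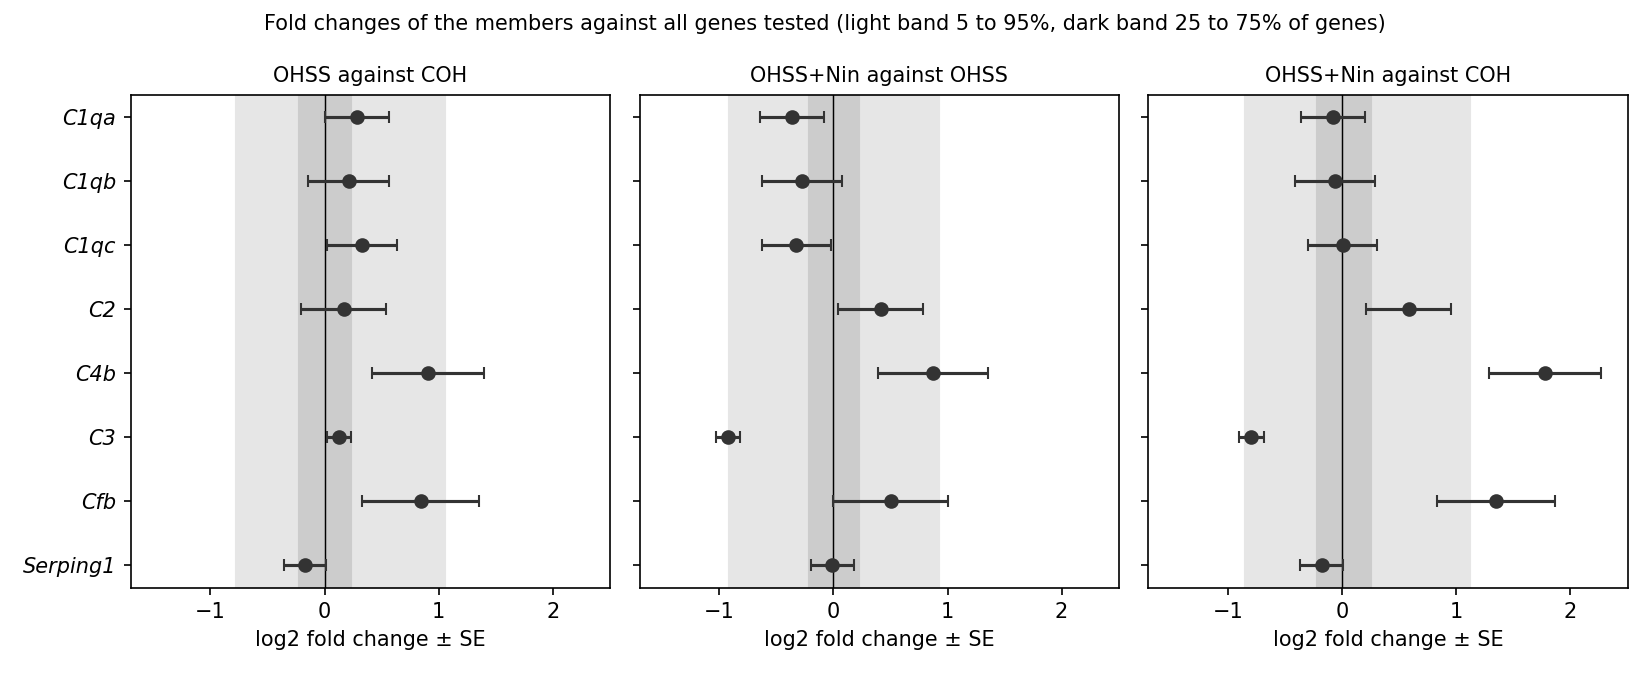
Log2 fold change with its SE (horizontal axes) of the 8 members in the 3 comparisons, over bands holding 5 to 95% and 25 to 75% of the 19027 genes tested. C3 lies at -0.93 and -0.80 in the OHSS+Nin comparisons with short error bars, and C4b and Cfb lie at 1.78 and 1.35 for OHSS+Nin against COH with long ones.

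Over the 8 members edgeR called 0 in each comparison at an adjusted p below 0.05. The shares called among all genes were 0.0105% for OHSS against COH, 0.00526% for OHSS+Nin against OHSS and 0.0263% for OHSS+Nin against COH, so few genes of any kind were called. In OHSS+Nin against COH 0.021% of genes were called higher. At an unadjusted p under 0.05 there were 0, 1 and 3 members in that order of comparisons, against 8.82%, 7.42% and 9.7% of all genes. The first 2 of these counts moved when an OHSS library was left out. Such a fit rests on a lone OHSS library, so its counts at this cutoff are not given. The single member in OHSS+Nin against OHSS with all libraries was C3, and the 3 in OHSS+Nin against COH were C3, C4b and Cfb. DESeq2 called 0, 1 (C3) and 2 (C3 and C4b) members, against 2.19%, 1.27% and 2.73% of genes. Groups did not overlap for 1 member (C3) in OHSS against COH, 2 (C3 and C4b) in OHSS+Nin against OHSS and 4 (C2, C3, C4b and Cfb) in OHSS+Nin against COH, against 44.1%, 36.2% and 45% of all genes. The members higher without overlap were 1, 1 and 3, against 21.2%, 19.2% and 22.3% of genes. The median log2 fold changes of the members were 0.25, -0.14 and -0.03, beside -0.0030, 0.010 and -0.00099 for all genes. Means were higher for 7, 3 and 4 of the 8, against 49.6%, 51.5% and 49.9% of genes. These counts turned on the OHSS library used. Without OHSS replicate 1 there were 2 members higher in OHSS than in COH (median -0.20) and 7 in OHSS+Nin than in OHSS (0.29). Without OHSS replicate 2 there were 8 (0.64) and 1 (-0.47).

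**Figure D4:**
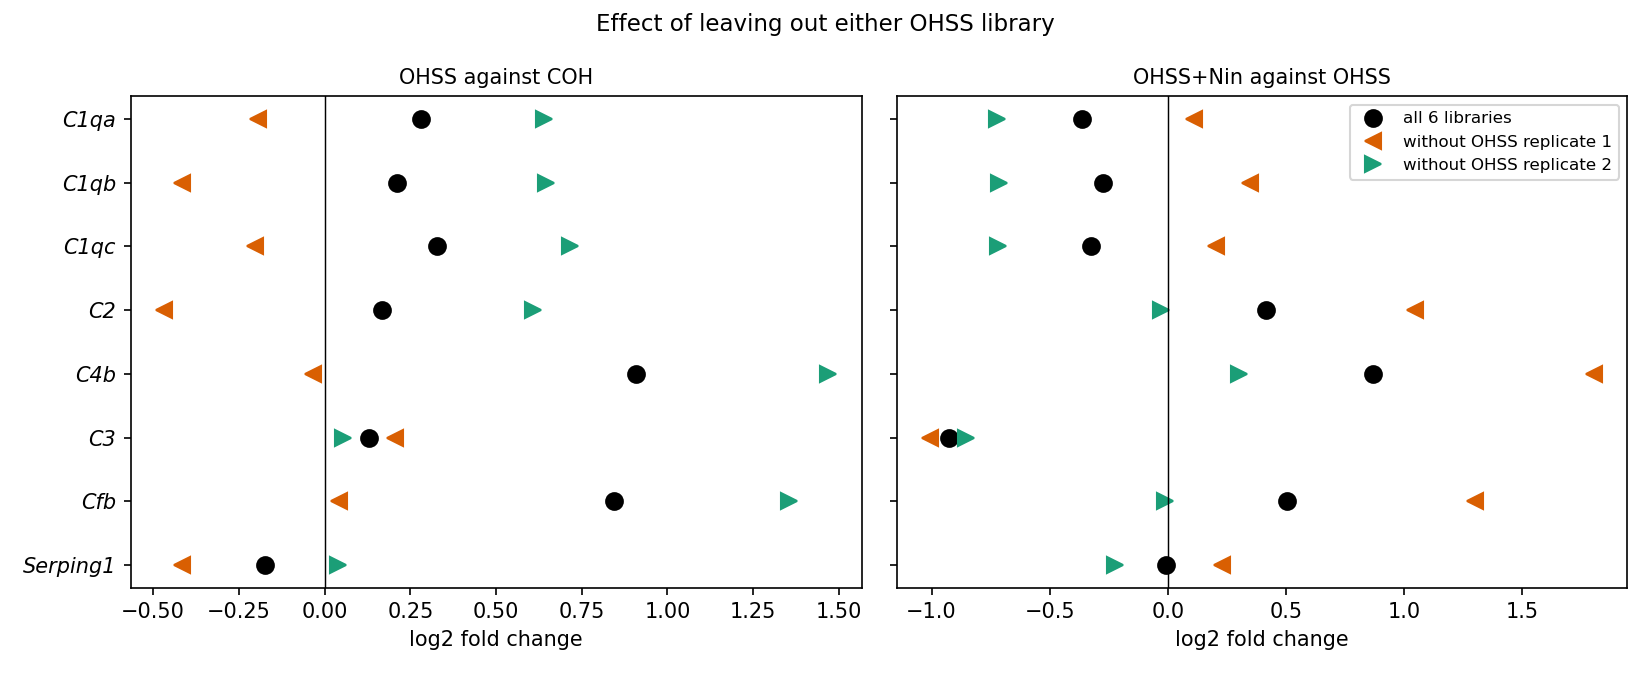
Log2 fold change (horizontal axes) of each member with all 6 libraries (circles) and with OHSS replicate 1 or OHSS replicate 2 left out (triangles), for OHSS against COH and OHSS+Nin against OHSS. The C1q chains change sign between the triangles in both panels, from -0.42 to 0.65 for C1qb against COH, while C3 stays within -1.01 to -0.86 for OHSS+Nin against OHSS.

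Levels can be compared between members only per length, here as CPM per kilobase of annotated exon (GENCODE M21). In COH the order was Serping1 at 95.1 ± 7.31, C1qa at 75.8 ± 1.79, C1qb at 68.6 ± 4.88, C1qc at 36.9 ± 0.552, C2 at 20.6 ± 0.848, C3 at 13.2 ± 0.267, Cfb at 1.65 ± 0.154 and C4b at 1.28 ± 0.195 CPM per kilobase (SD, n = 2), and no neighbours in that order overlapped. In OHSS+Nin Serping1 led at 83.8 ± 8.69, C1qa and C1qb overlapped at 71.7 ± 7.67 and 65.7 ± 9.44, as did C1qc and C2 at 36.97 ± 3.66 and 30.8 ± 7.39, and C4b and Cfb at 4.39 ± 0.279 and 4.20 ± 1.72 CPM per kilobase. C3 at 7.61 ± 0.409 lay below C2 and above C4b. In OHSS the wide spread let most neighbours overlap, with C1qa, Serping1 and C1qb at 92.2 ± 37.5, 84.4 ± 19.5 and 79.4 ± 40.3 CPM per kilobase. By this measure the ovary held far more RNA of C1q and C1 inhibitor than of C4b and factor B in every group. Cfb shares 79.5% and C2 42.8% of exon bases with Gm20547, and C4b shares stretches with C4a. How shared reads were counted is not known, so levels of Cfb, C2 and C4b may be too low and their places in the order are uncertain.

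Within a library, the balance between C3 and Cfb shifted. The ratio of C3 to Cfb in CPM was 4.47 and 2.65 in OHSS+Nin, 5.92 and 16.3 in OHSS, and 15.8 and 13.5 in COH. OHSS+Nin libraries had the lowest ratios, OHSS replicate 1 was nearer to them and OHSS replicate 2 was nearer to COH. Across the 6 libraries the log2 levels of C4b and Cfb had a Pearson r of 0.94, those of C2 and Cfb 0.91 and those of C1qa and C1qc 0.99. C3 and C4b had an r of -0.77, and Serping1 and Cfb one of -0.04. These points share their libraries and 3 groups, so the values describe only the 6 libraries.

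Genes with the pattern most like each member were taken from 11506 genes at 5 CPM or more by Pearson r of log2 CPM over the 6 libraries. For Cfb they were Parp10, Ifitm3 and Parp3, at 0.999, 0.996 and 0.996, with 105 genes above 0.95. For C2 they were Eno1, Psmb9 and Casp12 (0.992, 0.988 and 0.987), for C4b Sdad1, Dock8 and Cebpa (0.992, 0.987 and 0.985), and for C3 Nab2, Aldh3b2 and Tgif2 (0.996, 0.990 and 0.989). C1qa was closest to Ncln, Irf8 and C1qc (0.993, 0.991 and 0.991), C1qc to Ncln, Mbd4 and Utp20 (0.994, 0.993 and 0.993), C1qb to Ddx50, Dram1 and Ikbip (0.995, 0.984 and 0.982) and Serping1 to Mmp17, Tbc1d22a and Lrrfip1 (0.994, 0.986 and 0.982). The other members had 17 to 61 genes above 0.95.

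Of 44 other complement genes, all had a row and 34 were tested. EdgeR called 0 of them in each comparison. At an unadjusted p under 0.05 there were 3 higher and 3 lower in OHSS against COH, 4 higher and 1 lower in OHSS+Nin against OHSS, and 3 higher and 3 lower in OHSS+Nin against COH, against 4.59% and 4.24%, 3.95% and 3.47%, and 5.62% and 4.08% of all genes. Their median log2 fold changes were -0.11, -0.08 and -0.13. DESeq2 called C4a in the first comparison, Itgax in the second, and Masp1, C1s1, Itgax and C1qbp in the third. Its calls among all genes came to 2.19%, 1.27% and 2.73% in that order. Itgax, a subunit of a receptor for cleaved C3, was named after its values were seen, and had 1.42 and 1.12 CPM in OHSS+Nin, 3.54 and 2.74 in OHSS, and 3.18 and 3.33 in COH.

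Among the proteases that act before C3, Masp1 and C1s1 differed in opposite directions. Masp1, a protease of the lectin pathway, had 14.4 and 17.95 CPM in OHSS+Nin, 7.88 and 9.73 in OHSS, and 5.82 and 3.99 in COH, with the 3 groups fully apart. On the log2 scale it differed by 1.72 (SE 0.264, edgeR adjusted p = 0.300, DESeq2 adjusted p = 7.11e-06) for OHSS+Nin against COH, 0.88 (SE 0.258) for OHSS+Nin against OHSS and 0.84 (SE 0.261) for OHSS against COH. C1s1, a mouse gene for the C1s protease of the C1 complex, had 67.1 and 57.3 CPM in OHSS+Nin, 67.7 and 68.8 in OHSS, and 99.4 and 91.8 in COH. It differed by -0.62 (SE 0.119, edgeR adjusted p = 0.384, DESeq2 adjusted p = 0.00418) for OHSS+Nin against COH and by -0.49 (SE 0.119) for OHSS against COH. C1ra, for the partner protease C1r, stood at 66.9 ± 4.97 CPM in OHSS+Nin, 63.8 ± 17.2 in OHSS and 68.4 ± 1.85 in COH (SD, n = 2). Copies of both genes, C1rb and C1s2, are annotated, so their levels are uncertain.

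Among regulators, no gene passed the edgeR test. Clu, clusterin, an inhibitor of the membrane attack complex, stood at 906 ± 119 CPM in OHSS+Nin, 585 ± 109 in OHSS and 724 ± 41.4 in COH (SD, n = 2), a log2 difference of 0.63 for OHSS+Nin against OHSS (SE 0.175, edgeR adjusted p = 0.653). Cr1l, the rodent membrane inhibitor Crry, averaged 49.5 ± 4.90, 51.8 ± 3.49 and 38.6 ± 5.72 CPM in the same order, Cd55 41.6 ± 17.5, 41.2 ± 10.4 and 39.4 ± 8.88, and Cd59a 13.3 ± 1.97, 11.7 ± 2.94 and 19.9 ± 11.9. Cr1l was higher in both OHSS libraries than in either COH library (log2 0.42, SE 0.152, edgeR adjusted p = 0.542). Cfi, the protease that inactivates C3b, was near the detection limit, at 3 to 26 counts per library.

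EdgeR called no late component, alternative pathway helper or receptor, and DESeq2 called C1qbp in OHSS+Nin against COH (adjusted p = 0.0489) beside Itgax, given above. C7, of the membrane attack complex, had 17.8 and 8.17 CPM in OHSS+Nin, 4.92 and 7.39 in OHSS, and 5.76 and 5.22 in COH (log2 1.08, SE 0.422, edgeR adjusted p = 0.669 for OHSS+Nin against OHSS). Cfd, factor D, which cuts factor B, had 0 and 69 counts in OHSS+Nin, 12 and 155 in OHSS, and 42 and 108 in COH, lower in replicate 1 of each group. Cfp, properdin, which stabilises the alternative convertase, stood at 26.3 ± 1.78 CPM in OHSS+Nin, 31.9 ± 6.46 in OHSS and 28.4 ± 0.166 in COH (SD, n = 2). C3ar1, the C3a receptor, had 10.1 and 9.69 CPM in OHSS+Nin, 16.9 and 10.99 in OHSS, and 9.42 and 12.4 in COH, and C5ar1, the C5a receptor, averaged 5.67 ± 0.314, 7.48 ± 0.898 and 6.10 ± 2.42 CPM. Both receptors lay lower in OHSS+Nin than in both OHSS libraries, with log2 fold changes of -0.50 (SE 0.265) and -0.40 (SE 0.320), and neither separated OHSS+Nin from COH. Cd93, an endothelial and myeloid surface protein once described as a C1q receptor, averaged 145.8 ± 7.40, 117 ± 4.22 and 139.7 ± 1.70 CPM, and C1qbp, a mitochondrial protein that binds C1q, 100.1 ± 0.377, 107 ± 3.75 and 128 ± 4.995 CPM.

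**Figure D5:**
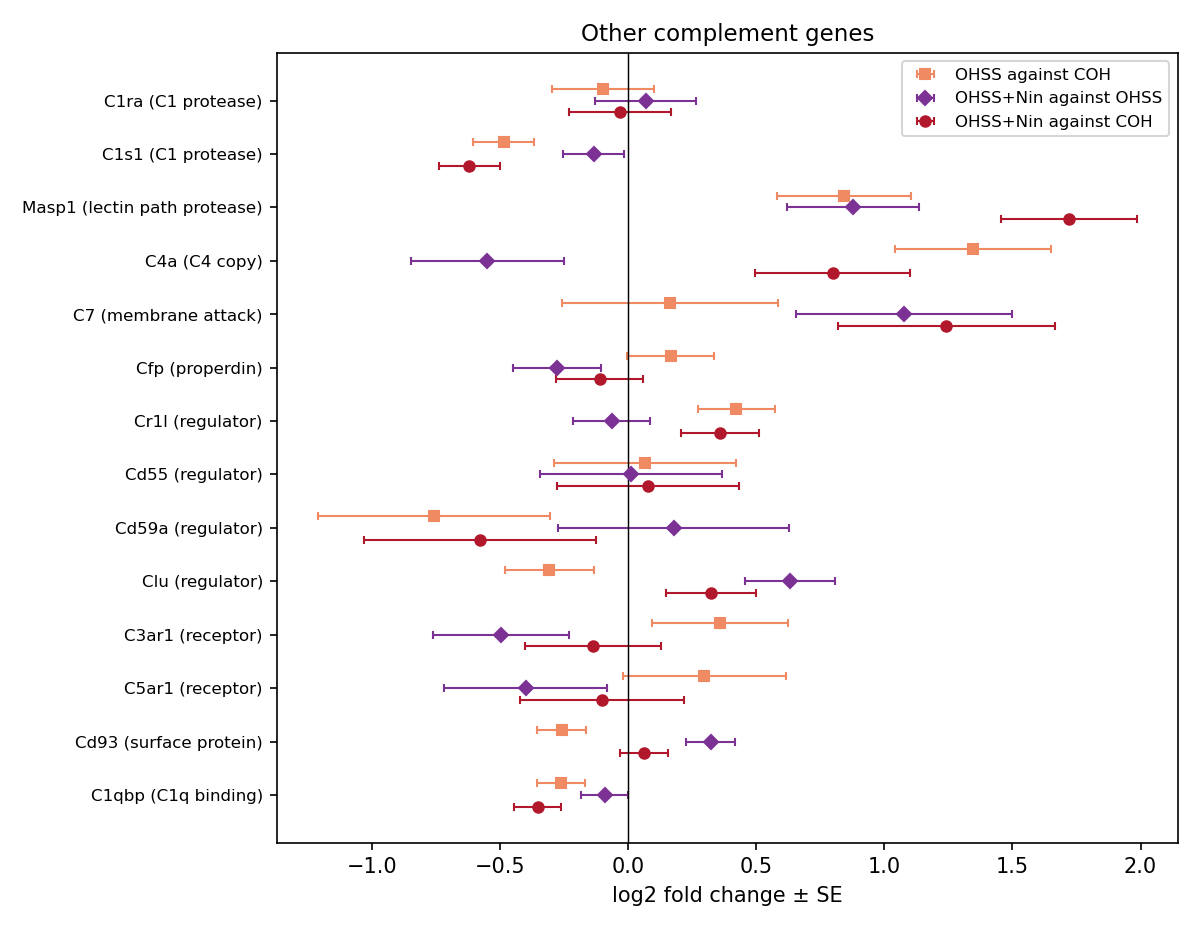
Log2 fold change with its SE (horizontal axis) of 14 other complement genes, with the role of each in parentheses, for the 3 comparisons. Masp1 lies at 1.72 and C1s1 at -0.62 for OHSS+Nin against COH, and C4a at 1.35 for OHSS against COH.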

How the data were processed

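Ovary RNA from 6 mouse libraries was sequenced after preparation from total RNA with an mRNA kit, per the labels' protocols. The deposited table gives unnormalised counts per Ensembl gene ID for each library, per the file headers. Deposited read summaries per library (a mixture of other quantities) gave 38504916 to 47163764 reads. Build mm8 and the tools HISAT2 2.1.0, StringTie 1.3.3b and Trimmomatic 0.36 come from the submitters' processing notes, which give no roles. The sources used here do not give the counting program, the annotation or the use of strand. Of the table's IDs, 99.6% are in GENCODE M21, an annotation of GRCm38, which was used for exon lengths and gene order only. Counts came to 144.2 to 148% of read pairs and 72.1 to 74.0% of reads, so a pair may have been counted as 2 reads. The counting error of the lowest member count (142, Cfb) is then 11.9% and not 8.39%, for counting error only.

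Genes were filtered with filterByExpr and libraries scaled with TMM factors of 0.961 to 1.03 in edgeR 4.0.16 (R 4.3.3). One quasi-likelihood fit (glmQLFit, glmQLFTest, two-sided) of the 3 groups gave the 3 comparisons, with Benjamini-Hochberg adjustment over 19027 genes and calls below 0.05. SE and 95% intervals derive from the F statistic with 3 residual and 2.41 prior degrees of freedom. An exact permutation test of 2 libraries against 2 was not used. The fit was checked on simulated counts with the same spread set for all genes and not taken from these libraries. That check covers the working of the code and cannot show its power or error rate here. Alternatives were RLE, upper quartile and no scaling factors, no filter or at least 5 CPM in 2 libraries, DESeq2 1.42.0, limma voom 3.58.1, a replicate block, a fit of the 2 groups compared, each library left out, and sums of overlapping genes. Genes named beside the 8 members were chosen by rule: C4a, Gm20547, named regulators and receptors, up to 6 other complement genes with the smallest p per comparison at 5 CPM or more, the 3 genes most alike to each member, and macrophage or interferon markers. Itgax, the ovarian marker lists and the copies C1rb and C1s2 fall outside that rule. A gene that the rule names is not reported here. The members and lists were chosen with earlier results of these data known.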

Additional observations from a re-analysis of the deposited data

How the results depend on the processing

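The 0 member calls of edgeR held under every other scaling, filter and sample setting and with limma voom, and 0 other complement genes were called in those fits. DESeq2 called 1 member for OHSS+Nin against OHSS and 2 for OHSS+Nin against COH, and 1, 1 and 4 other complement genes in OHSS against COH, OHSS+Nin against OHSS and OHSS+Nin against COH. Counts over all genes (2, 1 and 5, in that order) were 360, 223 and 449 with DESeq2, and 4 and 2 without a filter in the first 2 comparisons. Limma voom gave 0 for OHSS against COH and 2 for OHSS+Nin against COH, and the fit of the 2 groups compared 0, 0 and 2. Leaving out each library gave 0 to 2, 0 to 30 and 0 to 53 genes. The 30 and 53 came without OHSS+Nin replicate 1, when the lone OHSS+Nin library is assumed to vary like the other groups, and no member was called. The cause of these shifts was not tested.

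With each library left out, log2 fold changes whose sign turned in OHSS against COH ran from -0.19 to 0.64 for C1qa, -0.42 to 0.65 for C1qb, -0.20 to 0.72 for C1qc, -0.47 to 0.61 for C2, -0.034 to 1.47 for C4b and -0.42 to 0.038 for Serping1. In OHSS+Nin against OHSS they ran from -0.72 to 0.11, -0.71 to 0.35 and -0.72 to 0.20 for C1qa, C1qb and C1qc, -0.030 to 1.05 for C2, -0.013 to 1.3 for Cfb and -0.22 to 0.23 for Serping1. In OHSS+Nin against COH they ran from -0.20 to 0.025, -0.22 to 0.073 and -0.10 to 0.10 for C1qa, C1qb and C1qc. Serping1 in OHSS+Nin against OHSS was 0.064 with library size only and 0.0072 with limma voom. C1qc in OHSS+Nin against COH was -0.0042 with upper quartile factors, -0.0085 without a filter and -0.00036 with limma voom.

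Replicate numbers are shared between the groups, but nothing in the labels says they pair libraries, and the deviations of same-numbered libraries correlated at 0.02, -0.04 and 0.09 over 12303 genes. With the replicate block edgeR called 1, 0 and 2 genes in all and 0 members, Serping1 was 0.0036 in OHSS+Nin against OHSS and C1qc -0.010 in OHSS+Nin against COH. Counting error at the lowest count was 8.39% for Cfb, 6.84% for C4b and 1.42% to 3.04% for the other members, and more where a pair was counted as 2 reads.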
